A study of Homo sapiens with 8 samples.

Results

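The genes described here encode the respiratory chain and the ATP synthase. They were chosen by name: 83 rows of the expression table matched a list of symbols for the subunits of complexes I to V, and the 81 whose values averaged 1 RPKM or more are the members, out of 13979 genes at that level and 52576 rows in all. RPKM is a read count divided by gene model length and library depth, so a comparison between genes depends on the model lengths used. Of the members 73 are nuclear genes (35 of complex I, 4 of complex II, 9 of complex III, 10 of complex IV and 15 of complex V) and 8 are genes of mitochondrial DNA (5 of complex I, 1 of complex III and 2 of complex IV). NDUFA4, which the symbols place in complex I, is now counted as a complex IV subunit.

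The cells were NCI-H2009, an established human lung adenocarcinoma line. All 8 libraries came from cells transfected with dCas9-KRAB, a cutting-dead Cas9 joined to a domain that brings chromatin repressors to the DNA that a guide RNA selects. The 4 groups of 2 libraries differed in the guide RNA transfected afterwards: no guide, a guide that matches no human sequence (the non-targeting guide), and either of 2 different guides to an enhancer called e3 (guide 1 and guide 2). Control libraries below are the 4 without an e3 guide, and e3 libraries are the 4 with one. No label says that the libraries of 1 group are separate cultures, so the spread within a group, on which the p-values rest, may be only technical. Where both e3 guides form 1 side of a test, its spread also holds the difference between the guides. With both controls on the other side, it holds the difference between the controls as well. A group's 2 libraries are called its pair below. Nor do they say how many cells received a guide.

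The respiratory chain passes electrons from NADH (complex I) and succinate (complex II) through complex III and cytochrome c to complex IV, which reduces oxygen. Complexes I, III and IV pump protons across the inner mitochondrial membrane, and complex V, the ATP synthase, uses the gradient to make ATP. Except for complex II, which is wholly nuclear-encoded, each complex joins subunits from nuclear genes with subunits read from mitochondrial DNA, which has its own RNA polymerase and is transcribed as long RNAs that are then cleaved.

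Total depth, recovered from the steps between low RPKM values, lay between 3868829 and 5745112 reads in genes per library. MYC, the gene whose enhancers on chromosome 8 include e3, was at 74.6 and 72.7 RPKM in the no guide pair, 88.9 and 90.1 in the non-targeting pair, 42.4 and 43.4 in the guide 1 pair and 36.3 and 36.2 in the guide 2 pair. All e3 libraries were thus below all controls (log2 change -1.02, SE 0.10, limma adjusted p = 0.00215). Of 9 markers of lung epithelium 7 were above 1 RPKM, among them NKX2-1 (23.2 to 43.2 RPKM), while SFTPB and NAPSA had means below it. Of 9 measured markers of other cell types only CD68 and COL1A1 reached 1 RPKM, and CD3E, ALB and NCAM1 were listed at 0 in every library.

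A pair of the 83 rows did not become members. NDUFA2 held 0 or 1 read per library. The row labelled MT-ATP8 carries the identifier of a nuclear pseudogene, MTATP8P2, and was listed at 0 in every library, so it says nothing of the mitochondrial gene. MT-ND4, MT-ND4L, MT-CO3, MT-ATP6 and MT-ATP8 were not analysed here, which leaves complex V without a mitochondrial member. The row for NDUFA7 shares 91.4% of its exon bases with other genes and is uncertain, as are those for ATP5I (61.6%), NDUFS7 (49.1%) and NDUFB8 (48.5%). In all 10 of the 73 nuclear members share over 25% of their exon bases with another gene, and 44 have at least 1 pseudogene named after them, so that the counting of reads could have split or merged their values. Whether the counting used strand is not given in the sources used here, and without strand the reads of MT-ND6, the member on the other strand of mitochondrial DNA, cannot be told apart from those of the opposite strand.

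Promoter sequences from RefSeq (build GRCh38.p14, 300 bases from 250 before to 50 after the transcription start) were matched for 60 of the 73 nuclear members. They were searched on both strands for 4 short motifs bound by factors known to act at respiratory genes. Each member is counted with 1 promoter, whereas all promoters are not limited to 1 per gene or to expressed genes. GCGCATGC, the core of the NRF1 site, was in 12 of 60 members (20%) and in 3.05% of all 35093 promoters of the table. CCGGAAG, bound by the ETS family to which GABPA belongs, was in 19 members (31.7%) and 10.3% of all promoters. ATGGCGGC, bound by YY1, was in 12 members (20%) and 2.99% of all promoters. CACGTG, the E-box that MYC and its partner MAX bind, was in 7 members (11.7%) and 7.26% of all promoters. None of the 4 motifs contains another, and 23 of the 60 promoters held none. The YY1 motif was in 9 of 30 promoters of complex I, 1 of 3 of complex II and 2 of 7 of complex III, and in 0 of 9 of complex IV and 0 of 11 of complex V.

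The stretch from 150 bases before to 30 after the start is printed for 4 nuclear members that the results turn on: NDUFA10 and COX7C, which passed the test in the e3 libraries, SDHB, the lowest of the succinate dehydrogenase genes against the non-targeting guide, and UQCRH, the largest rise between the controls. Capitals mark the motifs, here CCGGAAG or its reverse complement, and ATGGCGGC. ATP5B, which also passed the test in the e3 libraries, had no matched promoter. A match is a run of letters and says nothing of binding.
NDUFA10 (chr2:240025313-240025492, minus strand): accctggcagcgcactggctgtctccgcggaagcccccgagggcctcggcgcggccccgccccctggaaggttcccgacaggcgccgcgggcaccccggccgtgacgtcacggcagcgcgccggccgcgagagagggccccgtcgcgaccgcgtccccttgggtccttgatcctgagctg
COX7C (chr5:86617791-86617970, plus strand): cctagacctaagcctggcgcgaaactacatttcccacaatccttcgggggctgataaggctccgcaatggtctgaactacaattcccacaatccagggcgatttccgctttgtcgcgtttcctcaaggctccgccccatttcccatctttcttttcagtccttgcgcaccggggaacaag
SDHB (chr1:17054003-17054182, minus strand): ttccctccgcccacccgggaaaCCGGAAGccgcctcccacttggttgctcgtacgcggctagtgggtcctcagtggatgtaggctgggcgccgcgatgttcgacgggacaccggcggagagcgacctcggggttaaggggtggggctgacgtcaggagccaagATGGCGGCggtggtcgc
UQCRH (chr1:46303548-46303727, plus strand): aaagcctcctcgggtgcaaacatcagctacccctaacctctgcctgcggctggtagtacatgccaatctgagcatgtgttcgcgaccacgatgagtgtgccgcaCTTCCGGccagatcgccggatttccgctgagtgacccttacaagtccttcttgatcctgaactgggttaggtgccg
The printed stretches of NDUFA10 and COX7C held none of the 4 motifs, that of SDHB held 2 and that of UQCRH held 1.

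In level, the genes of mitochondrial DNA stood far above the nuclear ones. The 8 mitochondrial members had a median mean of 1276 RPKM, from 812 for MT-ND3 to 2845 for MT-CO2, and the 73 nuclear members a median of 49.4 RPKM, from 9.28 for NDUFB5 to 241 for ATP5H, which gives a ratio of medians of 25.8. Per complex the highest nuclear members were NDUFS5 (178 RPKM), SDHA (138), CYC1 (149.7), COX8A (213) and ATP5H (241). The lowest were NDUFB5 (9.28), SDHD (18.7), UQCRB (17.9), COX7B (12.2) and ATP5O (22.4). RPKM values of subunits that meet in 1 complex were thus far apart, but they depend on the gene model length. UQCRB, on a model of 6.17 kb, held 406 to 644 reads per library, and UQCRH, on 1.41 kb, held 371 to 577. Their means were 17.9 and 72.9 RPKM. What part model length had in these gaps was not tested. The fewest reads behind a nuclear value were 13, and the fewest behind a mitochondrial one 925.

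Repression of e3 was compared with both controls together first. In this comparison 6 of the 81 members (7.41%) were called lower at a limma adjusted p under 0.05 and 0 higher, beside 2.58% of all tested genes called lower and 2.63% called higher. The 6 were 3 mitochondrial genes of complex I, MT-ND1, MT-ND2 and MT-ND3, and 3 nuclear genes, NDUFA10 of complex I, COX7C of complex IV and ATP5B of complex V. The nuclear share, 3 of 73 (4.11%), was nearer that of all genes, and 26 of the 81 members (32.1%) had an unadjusted p under 0.05, beside 22.2% of all genes. All 8 mitochondrial members had a log2 change below 0, except MT-ND6 after a trend on gene length was removed, and so had 64 of 73 nuclear members. Of all 13979 genes tested 7463 were below 0. The median was -0.19 for the mitochondrial and -0.12 for the nuclear members, beside -0.02 over all genes tested. In bulk RNA, less RNA per cell and fewer cells with that RNA cannot be told apart.

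MT-ND3, a small core subunit of complex I, showed the largest of the mitochondrial differences. It was at 1033 and 927 RPKM in the no guide pair, 858 and 871 in the non-targeting pair, 724 and 756 in the guide 1 pair and 701 and 624 in the guide 2 pair. Every e3 library lay below every control library (mean 701 ± 56.5 against 922 ± 79.7 RPKM, SD over 4 libraries that pool 2 groups, n = 4 each), for a log2 change of -0.39 (SE 0.08, adjusted p = 0.0242). MT-ND1, which lines the ubiquinone site of complex I, was at 1941 and 1946 RPKM in the no guide pair, 1819 and 1834 in the non-targeting pair, 1709 and 1665 in the guide 1 pair and 1592 and 1603 in the guide 2 pair. Its 4 groups did not overlap and stepped down in that order (log2 change of e3 against controls -0.20, SE 0.05, adjusted p = 0.0455). MT-ND2, a proton-pumping subunit, was at 1411 and 1411 RPKM in the no guide pair, 1394 and 1306 in the non-targeting pair, 1227 and 1215 in the guide 1 pair and 1180 and 1188 in the guide 2 pair. Its e3 libraries were again all below the controls (-0.20, SE 0.05, adjusted p = 0.0395).

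The other 5 mitochondrial members did not pass the test against both controls. MT-ND5, MT-CYB and MT-CO1 had their 4 e3 libraries below the 4 control libraries, with log2 changes of -0.16, -0.17 and -0.21 and adjusted p of 0.0688, 0.102 and 0.0980. MT-CO2, which carries the copper site of complex IV that takes electrons from cytochrome c, was at 3001 and 2846 RPKM with guide 1 and 2395 and 2556 with guide 2, and its control libraries were between 2881 and 3067. Only its guide 2 libraries were apart from the controls, and the change over both guides was -0.15 (SE 0.07, adjusted p = 0.25). MT-ND6, the member of the other strand, ran from 1205 to 1252 RPKM with e3 guides and from 1209 to 1346 in the controls, so the ranges overlapped (-0.07, SE 0.05, adjusted p = 0.47), and the change was 0.02 after the trend on gene length was removed.

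**Figure D1:**
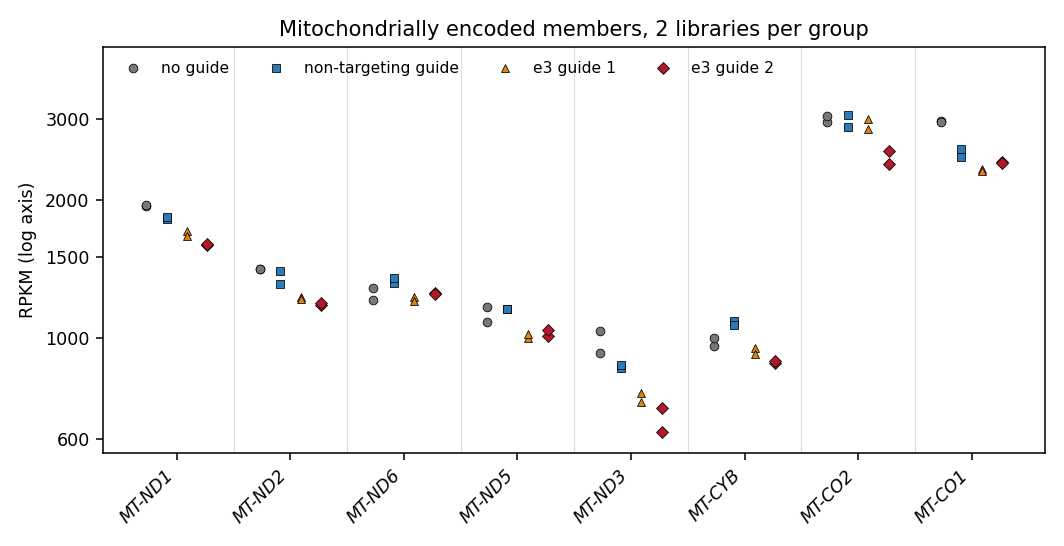
RPKM (log axis) of the 8 mitochondrially encoded members in each library, with 2 points per group. For MT-ND1, MT-ND2, MT-ND3, MT-ND5, MT-CYB and MT-CO1 every e3 library lies below every control library, while MT-ND6 and MT-CO2 overlap.

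In the nuclear genes, ATP5B (now ATP5F1B, chromosome 12), the catalytic beta subunit of the ATP synthase, was at 220 and 221 RPKM in the no guide pair, 252 and 244 in the non-targeting pair, 205 and 190.5 in the guide 1 pair and 174 and 183 in the guide 2 pair. All e3 libraries were below all controls (mean 188 ± 13.1 against 234 ± 16.0 RPKM, SD, n = 4 each), and the log2 change was -0.31 (SE 0.07, adjusted p = 0.035). NDUFA10 (chromosome 2), an accessory subunit of complex I, was at 17.5 and 17.2 RPKM in the no guide pair, 19.2 and 18.7 in the non-targeting pair, 14.4 and 13.9 in the guide 1 pair and 15.2 and 13.8 in the guide 2 pair. Here too the groups were separate, and the guides did not order (-0.33, SE 0.07, adjusted p = 0.0356). COX7C (chromosome 5), a small subunit of complex IV, was at 79.6 and 75.3 RPKM in the no guide pair, 71.7 and 71.8 in the non-targeting pair, 64.4 and 61.4 in the guide 1 pair and 61.5 and 54.1 in the guide 2 pair. It stepped down from no guide to the non-targeting guide to the e3 guides (-0.30, SE 0.07, adjusted p = 0.0387).

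Which of these 6 passed depended on single libraries. With 1 library left out, 0 to 3 members were called lower: 3 without replicate 1 of no guide, 2 without replicate 2 of the non-targeting guide or either replicate of guide 1, 1 without replicate 1 of the non-targeting guide, and 0 without replicate 2 of no guide or either replicate of guide 2. MT-ND3 kept its call in 5 of the 8 such fits, ATP5B in 2, MT-ND2 in 1, and MT-ND1, NDUFA10 and COX7C in 0, with adjusted p between 0.0309 and 0.134 over the 6 genes. With the correlation between libraries of a group estimated, or with each group's mean as 1 sample, 0 members were called, while a model of all 4 groups called 25. Of all 13979 genes these fits called 116, 0 and 1232 lower, beside 360 in the main fit. With 1 library left out 85 to 245 of all genes were called lower. Over the alternatives tried, the adjusted p ranged from 0.00103 to 0.414 for MT-ND3 and from 0.000766 to 0.437 for ATP5B. The 6 log2 changes stayed below 0 throughout. After a trend of each library's values on gene length was removed, NDUFA10 and ATP5B were the 2 members called.

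**Figure D2:**
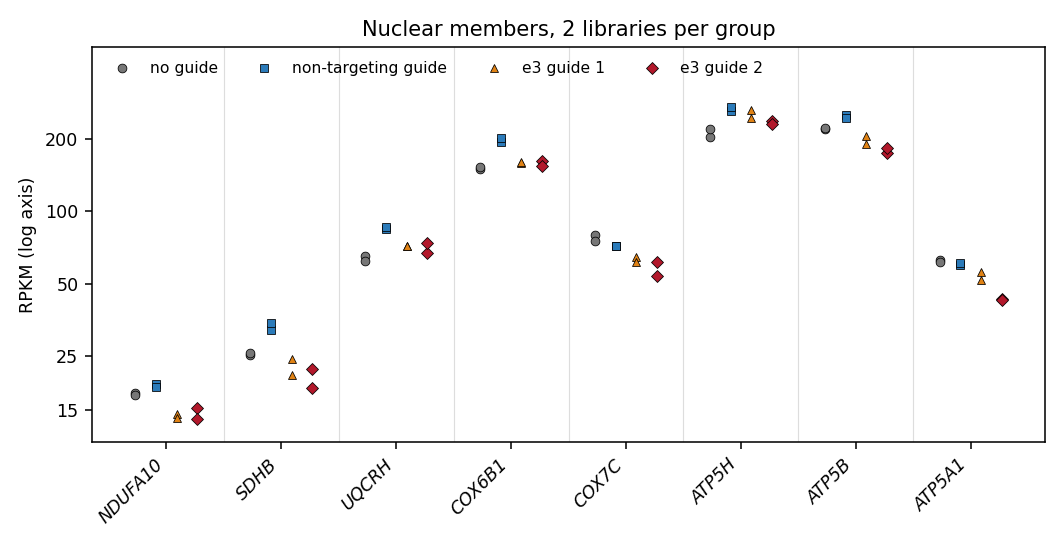
RPKM (log axis) of 8 nuclear members in each library, with 2 points per group. NDUFA10, SDHB, COX7C, ATP5A1 and ATP5B have every e3 library below every control, whereas UQCRH, COX6B1 and ATP5H are highest with the non-targeting guide.

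Separation of the e3 libraries from the controls, without regard to the test, was seen in 6 of 8 mitochondrial and 12 of 73 nuclear members (16.4%), all with the e3 libraries below, beside 7.51% of all tested genes. None had all e3 libraries above, beside 7.58% of all tested genes. By complex these nuclear members were 2 of 35 in complex I (NDUFV2, NDUFA10), 2 of 4 in complex II (SDHA, SDHB), 1 of 9 in complex III (UQCR11), 3 of 10 in complex IV (COX6A1, COX7C, COX7B) and 4 of 15 in complex V (ATP5B, ATP5J2, ATP5A1, ATP5F1).

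Complex I had 1 of 35 nuclear members called by limma (2.86%), beside 2.58% of all genes called lower. At an unadjusted p under 0.05 were 6 of the 35 (17.1%), beside 22.2% of all genes. The median log2 change was -0.12, with 29 members below 0. Among those not called, NDUFV2, an iron-sulphur subunit of the NADH-oxidising module, had a log2 change of -0.33 (SE 0.09, adjusted p = 0.0620), and NDUFS1, the largest iron-sulphur subunit, of -0.29 (SE 0.10, adjusted p = 0.124). NDUFA11, a membrane-arm accessory subunit, had the lowest log2 change of all members, -0.46, on 38 to 69 reads per library and with overlapping groups (SE 0.15, adjusted p = 0.116). NDUFB5, a membrane-arm accessory subunit, had the highest, 0.10 (SE 0.11, adjusted p = 0.636).

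Complex II, the only one with no mitochondrial gene, had 0 of 4 called by limma. At an unadjusted p under 0.05 were 2 of 4, beside 22.2% of all genes. SDHA, the flavoprotein that oxidises succinate, was at 155 and 152 RPKM in the no guide pair, 145 and 138 in the non-targeting pair, 133 and 136 in the guide 1 pair and 121 and 122 in the guide 2 pair. The 4 groups stepped down without overlap, by -0.20 for e3 against controls (SE 0.06, adjusted p = 0.0934). SDHB, its iron-sulphur partner, was at 25.4 and 25.7 RPKM in the no guide pair, 32.0 and 34.2 in the non-targeting pair, 24.3 and 20.9 in the guide 1 pair and 18.5 and 22.2 in the guide 2 pair. Its control groups were in the opposite order to those of SDHA, and the change was -0.43 (SE 0.12, adjusted p = 0.0702). The membrane anchors SDHC and SDHD had overlapping groups, with changes of -0.07 and -0.12.

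Complex III had 0 of 9 nuclear members called by limma, and its median was -0.09. At an unadjusted p under 0.05 were 3 of 9, beside 22.2% of all genes. CYC1, the cytochrome c1 that passes electrons to cytochrome c, had -0.24 (SE 0.10, adjusted p = 0.210), UQCR11 -0.24, UQCRFS1, the Rieske iron-sulphur protein, -0.18, and UQCRC2, a core protein, -0.11. UQCRB was at 17.9 ± 1.49 RPKM in the controls and 17.9 ± 1.07 with e3 guides (SD, n = 4 each, log2 change 0.01, SE 0.08), and the change was below 0 after the trend on gene length was removed or any of 4 single libraries was left out. Complex IV had 1 of 10 nuclear members called (10%), COX7C, beside 2.58% of all genes called lower. At an unadjusted p under 0.05 were 4 of 10, beside 22.2% of all genes, and the median was -0.15. COX7B had -0.36 (SE 0.10, adjusted p = 0.0637), COX6A1 -0.20 and COX8A -0.09.

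Complex V had 1 of 15 called by limma (6.67%), ATP5B, beside 2.58% of all genes called lower. At an unadjusted p under 0.05 were 5 of 15, beside 22.2% of all genes. The median was -0.17, and 14 members were below 0, beside 7463 of all 13979 genes tested. ATP5A1, the alpha subunit that forms the catalytic head with the beta subunit, was between 59.6 and 62.6 RPKM in all 4 controls, at 52.1 and 56.2 with guide 1 and at 43.2 and 43.0 with guide 2. Both guide groups were below the controls and apart from each other (log2 change -0.33, SE 0.09, adjusted p = 0.0653). ATP5G1, ATP5G2 and ATP5G3 encode the same mature subunit c of the rotor ring. Their changes were -0.28 for ATP5G1, -0.05 for ATP5G2 and -0.20 for ATP5G3, and none passed the test. ATP5H, a stalk subunit and the highest nuclear member, had 0.04 (SE 0.09, adjusted p = 0.84), and turned to -0.03 without replicate 1 of no guide.

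**Figure D3:**
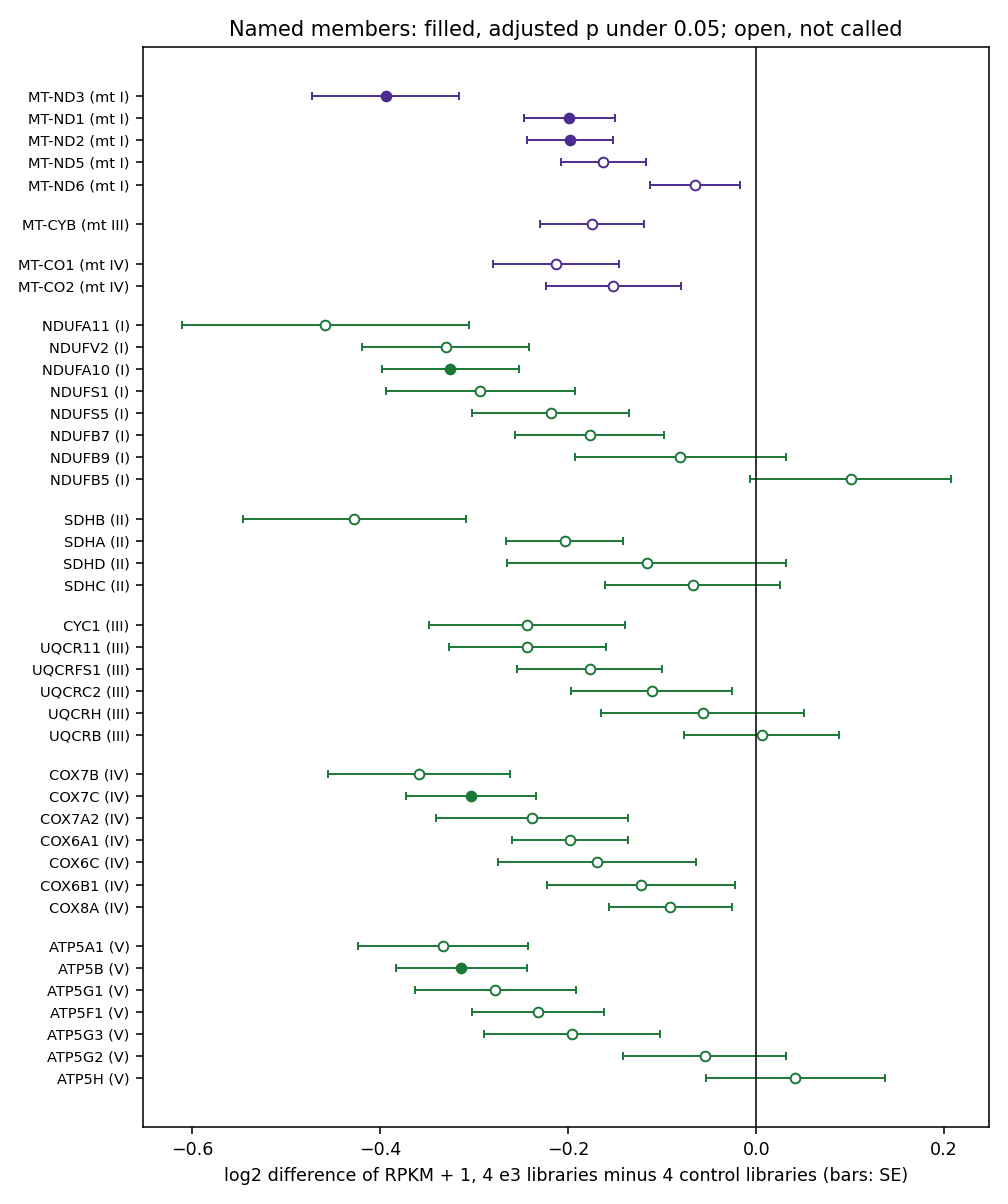
Log2 difference of RPKM + 1 between the 4 e3 and the 4 control libraries for the 40 named members, with SE as bars, by genome of origin and complex. Filled points are the 6 called members, and all but NDUFB5, UQCRB and ATP5H lie below 0.

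Chromosome 8, which carries e3, also carries 4 members: NDUFB9, CYC1, UQCRB and COX6C. None was called, 3 had a log2 change below 0, and the values ran from -0.24 for CYC1 to 0.01 for UQCRB.

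The e3 libraries were then set against each control alone. These comparisons share libraries with each other and with the one above, so their values are given side by side. Against the non-targeting guide 13 of 81 members (16.0%) were lower and 0 higher, beside 3.54% of all genes lower and 3.3% higher. They were 4 mitochondrial genes (MT-ND2, MT-ND3, MT-ND5, MT-CYB) and 9 nuclear ones (NDUFS5, NDUFB7, NDUFV2, NDUFA10, SDHB, UQCRH, COX6B1, COX7B, ATP5B). The largest change was that of SDHB (-0.61, SE 0.11, adjusted p = 0.0188), followed by COX7B (-0.44, SE 0.11) and NDUFV2 (-0.43, adjusted p = 0.0326). Without replicate 1 of guide 2 there were 6 and without replicate 2 of it 8, where 224 and 281 of all genes were lower, beside 495 with all libraries. Without either replicate of the non-targeting guide, the lone control library is assumed to vary like the e3 libraries, so calls are not counted. The nuclear median was -0.18 without replicate 1 of it and -0.20 without replicate 2, and the mitochondrial median -0.17 in both fits.

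Against no guide 7 of 81 members (8.64%) were lower and 0 higher, beside 8.03% of all genes lower and 8.68% higher. The share lower over both genomes was thus near the background, but the genomes differed. Lower were 4 of 8 mitochondrial members (50%) and 3 of 73 nuclear ones (4.11%), and 22 of the 73 had a log2 change above 0. The 7 are named next. They were MT-ND1, MT-ND2, MT-ND3, MT-CO1, NDUFS1, SDHA and COX7C. MT-CO1, the catalytic subunit of complex IV, was at 2977 and 2961 RPKM in the no guide pair, 2586 and 2481 in the non-targeting pair, 2338 and 2310 in the guide 1 pair and 2416 and 2399 in the guide 2 pair. The no guide libraries were the highest by far, and the fall from them to the e3 libraries was 0.33 on the log2 scale (SE 0.03, adjusted p = 0.000527). The nuclear median was -0.08 against no guide and -0.17 against the non-targeting guide, and the mitochondrial medians were -0.20 and -0.16. Without either replicate of no guide, the lone control library is again assumed to vary like the e3 libraries, so calls are not counted. Without replicate 1 of no guide the nuclear and mitochondrial medians were -0.08 and -0.21, and without replicate 2 of it -0.09 and -0.18.

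Between the controls, more members were higher with the non-targeting guide than lower. With the non-targeting guide 8 members (9.88%) were higher than with no guide and 2 (2.47%) lower, beside 6.55% of all genes higher and 5.81% lower. The 8 were 7 nuclear genes, NDUFB7, NDUFB9, NDUFA8, CYC1, UQCRH, COX6B1 and ATP5H, and MT-CYB, and the 2 lower were MT-ND1 and MT-CO1. NDUFA8 falls outside the rule for named genes and is given because it belongs to this count. The median over nuclear members was 0.14 and over mitochondrial members -0.04, beside -0.01 over all genes, and the mitochondrial members were split, 3 above 0 and 5 below. Of the nuclear members 55 of 73 were above 0, among them 14 of 15 in complex V.

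UQCRH, the hinge protein of complex III, was at 65.5 and 62.4 RPKM in the no guide pair, 84.8 and 86.1 in the non-targeting pair, 71.5 and 71.8 in the guide 1 pair and 67.3 and 73.7 in the guide 2 pair. The e3 libraries lay between the controls, and the controls differed by 0.41 (SE 0.06, adjusted p = 0.00424). COX6B1, the complex IV subunit that faces the intermembrane space, was at 150 and 153 RPKM in the no guide pair, 195 and 202 in the non-targeting pair, 158 and 161 in the guide 1 pair and 162 and 155 in the guide 2 pair. The non-targeting libraries alone stood high, 0.39 above no guide (SE 0.04, adjusted p = 0.00124). ATP5H was at 203 and 219 RPKM in the no guide pair, 260 and 271 in the non-targeting pair, 264 and 243 in the guide 1 pair and 237 and 231 in the guide 2 pair. Here the no guide libraries alone stood low, 0.33 below the non-targeting guide (SE 0.06, adjusted p = 0.00775). Without any 1 of the e3 libraries, which enter here only through the shared spread, 6 members were called higher between the controls and 2 lower. Of all genes 798 to 833 were then higher and 684 to 726 lower, beside 916 and 812 with all libraries. Without a control library 1 library stands for its group, so calls are not counted. The nuclear median was 0.15 and 0.12 without replicates 1 and 2 of no guide. It was 0.105 and 0.14 without those of the non-targeting guide.

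By group mean, 51 of 73 nuclear members (69.9%) were highest with the non-targeting guide and 45 (61.6%) lowest with guide 2, beside 24.4% and 26.0% of all genes tested. Of the 8 mitochondrial members the no guide pair was highest for 5 and the non-targeting pair for 3, and the guide 2 pair was lowest for 5 and the guide 1 pair for 3. The 8 mitochondrial members summed to 13569 and 13743 RPKM in the no guide pair, 13098 and 13123 in the non-targeting pair, 12171 and 11939 in the guide 1 pair and 11423 and 11538 in the guide 2 pair. The 4 groups did not overlap. The 73 nuclear members summed to 4760 and 4655 RPKM in the no guide pair, 5212 and 5253 in the non-targeting pair, 4706 and 4699 in the guide 1 pair and 4377 and 4301 in the guide 2 pair. Nuclear sums with guide 1 fell inside the range of no guide, and those with guide 2 were below every other library.

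**Figure D4:**
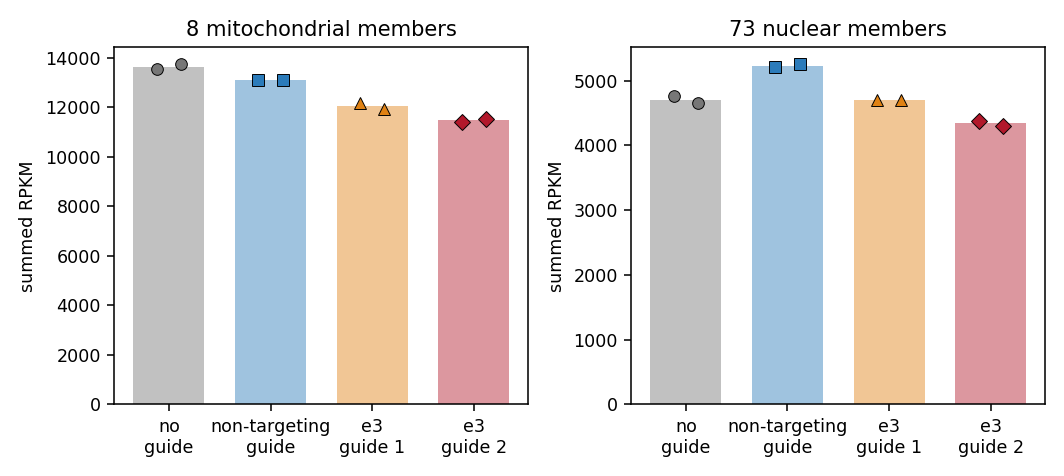
Summed RPKM of the 8 mitochondrial and the 73 nuclear members, with bars for group means and points for the 2 libraries of each group. The mitochondrial sum falls from 13656 without a guide to 11480 with guide 2, and the nuclear sum is highest, at 5232, with the non-targeting guide.

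No member differed between the 2 e3 guides at an adjusted p under 0.05. Over all genes limma called 4 (0.0286%) in this comparison, so 0 of 81 carries little weight, and 20 members (24.7%) had an unadjusted p under 0.05, beside 10.4% of all genes. The nuclear median was -0.11 for guide 2 minus guide 1, beside 0.00 over all genes, and all 9 nuclear members of complex III and all 15 of complex V had a difference below 0. Complex IV was nearer 0, with a median of -0.01. The nuclear median was -0.07 after quantile normalization. The smallest p-values belonged to MT-CO2 (-0.24, SE 0.04, adjusted p = 0.113) and ATP5A1 (-0.32, SE 0.06, adjusted p = 0.128). These guides also differed in the level of MYC, given above, though that difference did not pass either (-0.24, SE 0.05, adjusted p = 0.193).

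**Figure D5:**
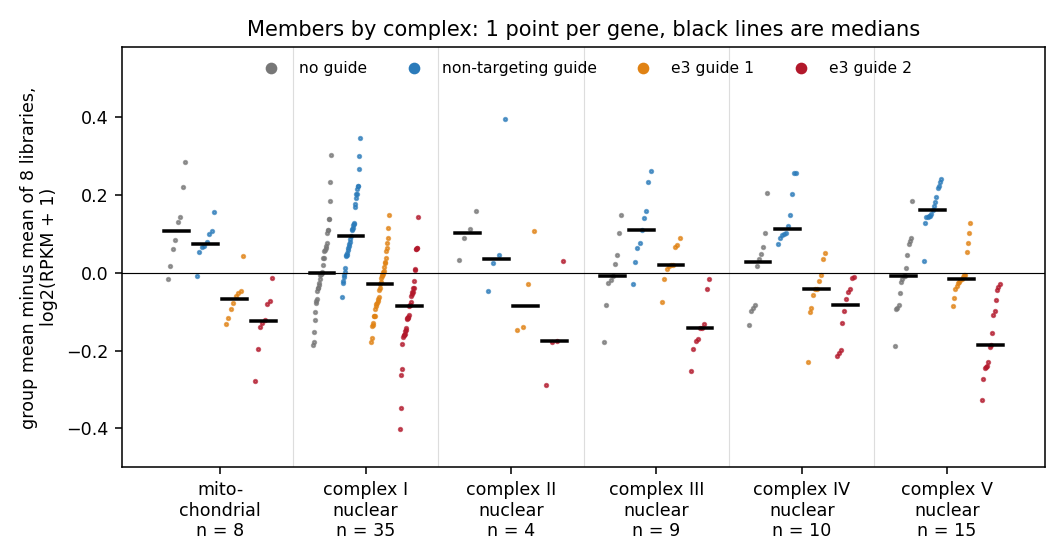
Group mean minus the mean of the 8 libraries on the log2(RPKM + 1) scale, with 1 point per member and black lines at the median of each set. The non-targeting guide has the highest median for nuclear complexes I, III, IV and V, no guide for complex II and the mitochondrial members, and guide 2 the lowest median in all 6 sets.

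Other RNAs moved with the mitochondrial members. The mitochondrial ribosomal RNA genes, which carry short tails and are poorly captured by poly(A) selection, were also lower with e3 guides. MT-RNR1 was at 862 and 860 RPKM in the no guide pair, 712 and 685 in the non-targeting pair, 487 and 478 in the guide 1 pair and 609 and 566 in the guide 2 pair (log2 change -0.54, SE 0.10, adjusted p = 0.0213), and MT-RNR2 changed by -0.29 (SE 0.07, adjusted p = 0.0465). A list held these 2 and other RNAs without poly(A) tails or with short ones. Of 14 tested, 3 were lower with e3 guides and 0 higher, beside 2.58% and 2.63% of all genes. The 3 were MT-RNR1, MT-RNR2 and RMRP, the RNA of RNase MRP (-1.53, SE 0.26, adjusted p = 0.0126). Against no guide 6 of the 14 were lower and 0 higher, beside 8.03% and 8.68% of all genes. Against the non-targeting guide 2 were lower and 1 higher, beside 3.54% and 3.3%. Between the controls 6 were lower with the non-targeting guide and 0 higher, beside 5.81% and 6.55%. MT-RNR1 differed between the controls by -0.30 (limma adjusted p = 0.00251) and MT-RNR2 by -0.25 (adjusted p = 0.00352). The list summed to 4399 and 4680 RPKM in the no guide pair, 3841 and 3780 in the non-targeting pair, 3342 and 3263 in the guide 1 pair and 3356 and 3313 in the guide 2 pair. Its e3 libraries were below both control pairs, and the pairs of guide 1 and guide 2 overlapped. MT-RNR2 alone was at 3077 and 3338 RPKM in the no guide pair and 2708 and 2700 in the non-targeting pair. With guide 1 it was at 2434 and 2416 and with guide 2 at 2369 and 2399. The sum thus mostly repeats the mitochondrial ribosomal RNAs and says little of the other RNAs in the list. What part the capture of RNA by its tail had in the mitochondrial result was not tested. Nuclear rows named as copies of mitochondrial protein genes numbered 143, of which 131 were listed at 0 in every library, and the highest was MTND2P28 at a mean of 264 RPKM, beside 1292 for MT-ND2. How many reads such copies take from the members was not tested.

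Factors that read, process or stabilise mitochondrial RNA were lower in part. The median log2 change of the 28 tested was -0.27. With e3 guides against both controls 4 were called lower and 0 higher, beside 2.58% and 2.63% of all genes. They were TBRG4, which acts on mitochondrial messages (-0.39, adjusted p = 0.0142), LRPPRC, which stabilises them (-0.32, adjusted p = 0.0312), TRMT10C, a part of mitochondrial RNase P (-0.45, adjusted p = 0.0422), and TFB2M, a transcription initiation factor (-0.50, adjusted p = 0.0484). LRPPRC was at 58.2 and 58.9 RPKM in the no guide pair, 54.1 and 58.2 in the non-targeting pair, 48.0 and 49.2 in the guide 1 pair and 43.8 and 42.2 in the guide 2 pair, with the e3 libraries below all controls. Between the controls 1 of the 28 was higher with the non-targeting guide and 0 lower, beside 6.55% and 5.81% of all genes.

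Assembly factors, which build the complexes without staying in them, gave 1 call, where 2.58% of all genes were called lower. It was NDUFAF2 (-0.48, adjusted p = 0.0395) among 14 tested for complex I, and 0 of 4 for complex II, 0 of 5 for complex III, 0 of 18 for complex IV and 0 of 3 for complex V were called. The medians were -0.16, -0.19, -0.11, -0.08 and -0.33. Among 8 tested subunits and carriers outside the name rule, ATPIF1, the inhibitor of the ATP synthase, was lower (-0.27, SE 0.06, adjusted p = 0.0428).

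In the rest of the mitochondrion, 1 of 17 genes of the tricarboxylic acid cycle and pyruvate entry was lower, beside 2.58% of all genes. It was MDH2, the mitochondrial malate dehydrogenase (-0.47, SE 0.08, adjusted p = 0.0151). Of 21 genes of import, membrane shape and carriers, 2 were lower against both controls, the chaperone HSPA9 (-0.31, adjusted p = 0.0228) and the prohibitin PHB2 (-0.39, adjusted p = 0.0387). Against the non-targeting guide 9 of these 21 were lower, beside 3.54% of all genes. In the non-targeting pair 6 were higher than in the no guide pair, beside 6.55% of all genes. The lung epithelial markers also differed between the groups. Of 7 tested, 5 were lower with the non-targeting guide than with no guide and 0 higher, beside 5.81% and 6.55% of all genes. With e3 guides 3 were higher and 0 lower against the non-targeting guide, beside 3.3% and 3.54% of all genes. Against no guide 1 was higher and 3 lower, beside 8.68% and 8.03%. Against both controls 1 was higher and 0 lower, beside 2.63% and 2.58%. All 9 summed to 3380 and 3497 RPKM in the no guide pair, 2684 and 2828 in the non-targeting pair, 3149 and 3166 in the guide 1 pair and 3063 and 3102 in the guide 2 pair. The part of this difference in the results on the members was not tested.

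Of 9 tested regulators of respiratory genes 0 passed for the e3 guides against both controls, where 2.58% of all genes were lower and 2.63% higher. Their median was -0.02. PPARGC1A and PPARGC1B, coactivators of mitochondrial genes, were under 1 RPKM in mean and were not tested. CD68, a lysosomal protein used as a macrophage marker, was at 12.2 to 13.7 RPKM in the no guide pair, 21.6 to 23.7 in the non-targeting pair and 28.3 to 31.8 in the e3 libraries (log2 change 0.78, SE 0.19, adjusted p = 0.0447). The leukocyte marker PTPRC was at 0.0469 RPKM in 1 library and at 0 in the others. The 9 markers of other cell types summed to 16.8 to 17.1 RPKM in the no guide pair, 26.7 to 29.6 in the non-targeting pair, 36.3 to 38.9 with guide 1 and 35.5 to 37.5 with guide 2. This sum mostly repeats CD68 and says little of the other markers. What part cells of another type had in the results on the members was not tested.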

How the data were processed

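RNA was measured by poly(A)-selected sequencing in 8 libraries, 2 for each of 4 groups taken from the sample titles and treatment labels. The authors deposited RPKM values, per the file headers, for 52576 genes. Per the submitters' processing notes, Cufflinks and build hg19 were used in a role they do not give. Aligner, strand setting and annotation are not given in the sources used here. RPKM steps were whole reads to within 0.03 reads in 100% of the 13979 genes tested, which gave the depth.

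Tests used limma 3.58.1 in R 4.3.3 (empirical Bayes with trend, two-sided) on log2(RPKM + 1), a scale that understates changes of low genes, for genes averaging 1 RPKM or more. P-values were adjusted by Benjamini-Hochberg over all genes tested. Comparisons of e3 with controls used 2 groups, the others a model of 4 groups. The steps were tested on simulated data. No set was tested.

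Named members were all mitochondrial ones and, per complex, the highest, 4 with the smallest p for e3 and 1 between the controls, plus chromosome 8 and subunit c genes and the largest rise. Members, lists and tests were chosen with earlier results of these data known. Exon overlap and pseudogenes named after members came from GENCODE 29, and chromosomes and promoters from RefSeq.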

Additional observations from a re-analysis of the deposited data

Results flagged for a closer look

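Among 98 sets of 4 libraries (the 4 controls or the 4 e3 libraries, each pooling 2 groups) of the named members and summed levels, 4 held a library far from the other 3. Chance gives about 1 in 20 such sets. In the controls, MT-ND2 was at 1306 RPKM in replicate 2 of the non-targeting guide, below 1394 to 1411 in the others, and MT-ND5 was at 1081 RPKM in replicate 1 of no guide, below 1152 to 1165 in the others. In the e3 libraries, NDUFA11 was at 12.5 RPKM in replicate 1 of guide 2, below 17.7 to 18.2 in the others, and COX7A2 was at 52.6 RPKM in replicate 1 of guide 1, above 39.8 to 41.1 in the others. No cause was tested.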

How the results depend on the processing

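Of 172 member counts under alternatives fixed for this work, 51 moved by over 1.5 times, and of 192 medians and log2 ratios of sums 26 moved by over 1 SD, with no median or sum changing sign. Members called lower for e3 against controls were 6, and became 1 with no filter on low values, 10 with a minimum of 5 RPKM, 2 with quantile normalization, 2 with the length trend removed, 25 with 4 groups in 1 model, 0 with an estimated correlation, 0 with group means as samples and 0 to 3 with 1 library left out. Against the non-targeting guide 13 became 2 (no filter), 6 (quantile), 6 (length) and 24 (4 groups), and 6 to 12 with 1 e3 library left out. Against no guide 7 lower became 2 with no filter, 15 with 4 groups and 6 to 9 with 1 e3 library left out. The 0 higher became 2 (minimum of 5 RPKM), 2 (median-ratio scaling), 1 (quantile), 2 (length) and 1 (4 groups). For e3 against either control alone, fits without a control library are not counted. They leave 1 control library, assumed to vary like the e3 libraries, so how far these calls rest on single control libraries is not shown. Between the controls 2 lower became 1 with no filter and 1 with median-ratio scaling, and stayed 2 with 1 e3 library left out. The 8 higher became 3 (no filter), 2 (quantile), 5 (length) and 6 with 1 e3 library left out. Calls over all genes tested moved as well. For e3 against controls 360 lower became 196 with no filter, 453 with a minimum of 5 RPKM, 336 with quantile normalization and 326 with the length trend removed. They became 1232 with 4 groups, 116 with an estimated correlation and 0 with group means as samples. Mitochondrial members called lower in this comparison, 3 in the main fit, became 0 with no filter, with quantile normalization or with the length trend removed. They became 4 with a minimum of 5 RPKM and 7 with 4 groups. The cause of these moves was not tested.

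Replicate numbers did not pair the libraries: correlations of same-numbered deviations ran from -0.02 to 0.01. With the replicate block, counts lower were 1 for e3 against controls and 8 against the non-targeting guide. With the replicate block and the length trend removed they were 0 and 3, with 2 higher against no guide and 3 higher between the controls. That fit gave the medians of the length removal.

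Mitochondrial medians were -0.13 (quantile) and -0.14 (length) for e3 against controls, -0.0788 and -0.0823 against the non-targeting guide, -0.15 (quantile) against no guide, -0.0168 (median-ratio) and -0.0871 (length) between the controls, and -0.0247 (quantile) and -0.0346 (length) between the guides. Nuclear medians were 0.16 (median-ratio), 0.0877 (quantile) and 0.11 (length) between the controls, and -0.0688 and -0.0869 between the guides. With 1 library left out, medians ran from 0.11 to 0.15 (nuclear) and -0.05 to -0.03 (mitochondrial) between the controls, and from -0.11 to -0.0798 and -0.0750 to -0.0489 between the guides.

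Of 800 log2 changes of named members, 686 kept direction and call, 78 lost the call, 24 gained it and 12 changed sign, each near 0. MT-ND6 became 0.0179 and UQCRB -0.00375 with the length trend removed, with or without the replicate block. With 1 library left out UQCRB ran from -0.0438 to 0.0388, UQCRH from -0.14 to 0.0154, ATP5G2 from -0.0956 to 0.00223 and ATP5H from -0.0328 to 0.11. Depth limits NDUFA11, at 38 to 69 reads per library, most among the named members.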
